A study of Mus musculus with 25 samples.

Results

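Long non-coding RNA (lncRNA) genes often start beside a protein-coding gene and share its promoter region, so a peak found there cannot be given to either gene. The stand-alone lncRNA promoters described here start more than 5 kb from every annotated protein-coding transcription start site (TSS). They were chosen from the mouse RefSeq annotation by position and biotype, and no peak entered the choice. Of 3319 lncRNA genes with a curated transcript, 2183 (65.8%) had at least 1 such start, with 2299 distinct TSSs in all. A single stand-alone TSS was present in 2077 of these genes and 2 or more in 106. A promoter was TSS ± 1 kb, and a gene counted as occupied when a peak overlapped the promoter of any of its stand-alone TSSs by at least 1 bp.

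ChIP-seq had been carried out for Spin1 and for histone H3 trimethylated at lysine 4 (H3K4me3). The cells were primary myoblasts, cultured muscle precursor cells isolated by preplating from limb muscle of C57BL/6 mice (C57BL/6 N in the study's methods) at an age of 10 days. No genetic change or treatment is given for these cells, and each antibody gave 1 library, with an input library as the control for peak calling. The Spin1 antibody was a custom serum, and the other antibody is labelled as directed against H3K4me in a sample named H3K4me3. The deposited lists hold 17106 Spin1 and 30763 H3K4me3 peaks with a position and a MACS score. This score is the negative log10 of the peak's p-value, multiplied by 10, and reaches a ceiling near 3100. Without replicates no difference was tested, and since each culture was measured as a whole, a weak peak in most cells and a strong peak in few cells cannot be told apart. Shares are given with 95% Wilson intervals, which cover counting error only, and the sequencing depth behind the lists is unknown.

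H3K4me3 is laid down at active and poised promoters, most of all at those in CpG islands, by methyltransferases that recognise unmethylated CpG. Spin1 is a reader protein whose Tudor-like domains bind the methylated histone tail, and it acts as a transcriptional coactivator. Many lncRNAs are made at low level or in a single lineage, whereas others, such as the hosts of small nucleolar RNAs and the nuclear RNAs Malat1 and Neat1, are made in most cells.

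The cells and the gene set were first checked against their labels. The myoblast genes Myod1, Myf5, Des and Pax7 all had both peaks at their promoters, and the endothelial, leukocyte, epithelial and hepatic genes Pecam1, Ptprc, Krt5 and Afp had neither. The neural crest gene Sox10 had H3K4me3 (score 1995) without Spin1. Over all curated genes, 50.6% had both peaks and 38.0% neither, so these few genes are a weak check of the cells. Promoter peaks are also no measure of expression. Of the 2183 gene symbols, 1778 were also found in GENCODE M21, which calls 1682 of them long non-coding and 66 protein-coding. These 66 included 11 with Spin1, among them Rnf227 and Kantr, and Tunar and Snhg11 without it. By the protein-coding TSSs of GENCODE M21, 1995 of the 2183 genes were also more than 5 kb away.

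Sequences around the start show how different these promoters are. Norad, a cytoplasmic RNA that binds Pumilio proteins, and H19, an imprinted RNA of fetal muscle, are examples with both peaks, and Xist, the RNA that coats the inactive X chromosome, had neither peak at a CpG-rich start. Mir155hg, the host of a microRNA of activated leukocytes, is an example of a CpG-poor promoter with neither peak. The sequences run 5′ to 3′ along the gene from 250 bases before to 50 bases after the start in the RefSeq assembly GRCm38.p6, and capitals mark CpG dinucleotides, whose density is compared with the peaks further on. Norad lies at chr2:156392930-156393229 on the minus strand, H19 at chr7:142578097-142578396 on the minus strand, Xist at chrX:103483184-103483483 on the minus strand and Mir155hg at chr16:84712773-84713072 on the plus strand.
Norad: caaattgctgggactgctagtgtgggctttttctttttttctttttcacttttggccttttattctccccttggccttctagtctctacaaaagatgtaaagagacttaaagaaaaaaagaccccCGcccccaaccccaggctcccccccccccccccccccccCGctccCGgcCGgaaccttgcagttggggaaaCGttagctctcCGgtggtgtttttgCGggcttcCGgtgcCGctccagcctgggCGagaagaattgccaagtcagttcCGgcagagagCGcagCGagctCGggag
H19: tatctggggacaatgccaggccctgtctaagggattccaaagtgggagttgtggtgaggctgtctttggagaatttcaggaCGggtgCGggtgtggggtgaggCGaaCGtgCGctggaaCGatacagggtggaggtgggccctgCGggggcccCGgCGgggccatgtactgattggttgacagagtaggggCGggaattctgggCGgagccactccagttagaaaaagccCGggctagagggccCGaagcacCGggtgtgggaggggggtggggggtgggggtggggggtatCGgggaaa
Xist: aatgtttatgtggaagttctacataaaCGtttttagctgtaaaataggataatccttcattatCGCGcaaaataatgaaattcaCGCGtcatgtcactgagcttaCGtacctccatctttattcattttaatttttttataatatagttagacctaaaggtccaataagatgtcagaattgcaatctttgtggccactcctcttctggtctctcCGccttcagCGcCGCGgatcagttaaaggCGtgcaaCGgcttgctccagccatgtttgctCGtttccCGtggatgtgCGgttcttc
Mir155hg: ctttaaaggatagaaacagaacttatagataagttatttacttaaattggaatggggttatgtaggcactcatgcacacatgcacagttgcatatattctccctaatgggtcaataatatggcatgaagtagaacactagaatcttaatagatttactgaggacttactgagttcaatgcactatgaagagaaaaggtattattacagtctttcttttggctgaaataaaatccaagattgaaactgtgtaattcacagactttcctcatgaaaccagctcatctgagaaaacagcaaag
These windows hold 14 CpGs for Norad, 15 for H19, 15 for Xist and 0 for Mir155hg.

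Lincmd1 and Mir1a-1hg are hosts of muscle microRNAs and are shown because both had Spin1 at promoters of low or middle CpG content. The Spin1 peak of Mir1a-1hg starts at chr2:180386114, downstream of the sequence shown, which holds none of it. That of Lincmd1 starts within the sequence shown, at chr1:20669812. Lincmd1 carries miR-206 and miR-133b, and Mir1a-1hg carries miR-1a and miR-133a. Here capitals mark E-boxes, the motif CANNTG bound by Myod1 and related factors, which reads the same on both strands. Lincmd1 lies at chr1:20669632-20669931 on the plus strand and Mir1a-1hg at chr2:180385354-180385653 on the plus strand.
Lincmd1: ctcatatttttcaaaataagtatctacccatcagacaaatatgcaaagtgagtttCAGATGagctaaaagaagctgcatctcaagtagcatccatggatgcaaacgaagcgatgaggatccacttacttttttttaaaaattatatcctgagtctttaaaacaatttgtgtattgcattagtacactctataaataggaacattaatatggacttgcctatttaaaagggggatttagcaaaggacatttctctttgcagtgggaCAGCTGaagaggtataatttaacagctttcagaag
Mir1a-1hg: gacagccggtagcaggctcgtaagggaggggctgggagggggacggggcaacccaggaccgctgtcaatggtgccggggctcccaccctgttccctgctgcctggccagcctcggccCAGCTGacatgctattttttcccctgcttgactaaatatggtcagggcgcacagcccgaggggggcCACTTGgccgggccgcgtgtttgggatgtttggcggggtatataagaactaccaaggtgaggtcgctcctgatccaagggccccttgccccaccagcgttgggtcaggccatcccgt
Both windows hold 2 E-boxes, 1 of them with the core CAGCTG. The general motif is found in 80.8% of stand-alone lncRNA promoters of this length and the core CAGCTG in 19.1%, so neither sets these promoters apart. The mature microRNAs that Lincmd1 carries are shown next, with the seed (bases 2 to 8) in capitals.
miR-206-3p: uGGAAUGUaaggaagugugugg
miR-133b-3p: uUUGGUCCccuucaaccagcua
The seeds of these microRNAs differ.

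Spin1 was found at few stand-alone lncRNA promoters. It occupied 233 of the 2183 genes, or 10.7% (9.45 to 12.0%), where 50.7% of all 26182 curated genes were occupied. H3K4me3 marked 428 genes, or 19.6% (18.0 to 21.3%), against 61.9% of all curated genes. Both peaks were present at 227 genes (10.4%), against 50.6% of all curated genes, and 1749 genes (80.1%) had neither. A further 201 genes had H3K4me3 only and 6 had Spin1 only. The shares of lncRNA genes whose start lies within 5 kb of a protein-coding TSS were 66.4% (63.6 to 69.1%) for Spin1 and 81.0% (78.6 to 83.2%) for H3K4me3, which is above the 56.7% and 68.0% of protein-coding genes. Protein-coding genes were called isolated here if at least 1 TSS lay more than 5 kb from those of other protein-coding genes. Counted at such TSSs only, 51.4% of these genes had Spin1 and 63.6% had H3K4me3. The intervals of the stand-alone lncRNA genes did not reach those of any of these sets. Peaks shared with a protein-coding promoter were few, since every Spin1 peak also reached such a promoter at 1 of the genes with Spin1, and every H3K4me3 peak at 3 of those with H3K4me3. Among the stand-alone genes, 56 promoter windows overlapped a window of another such gene. A peak there can count for more than 1 gene, while the intervals treat genes as independent.

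**Figure D1:**
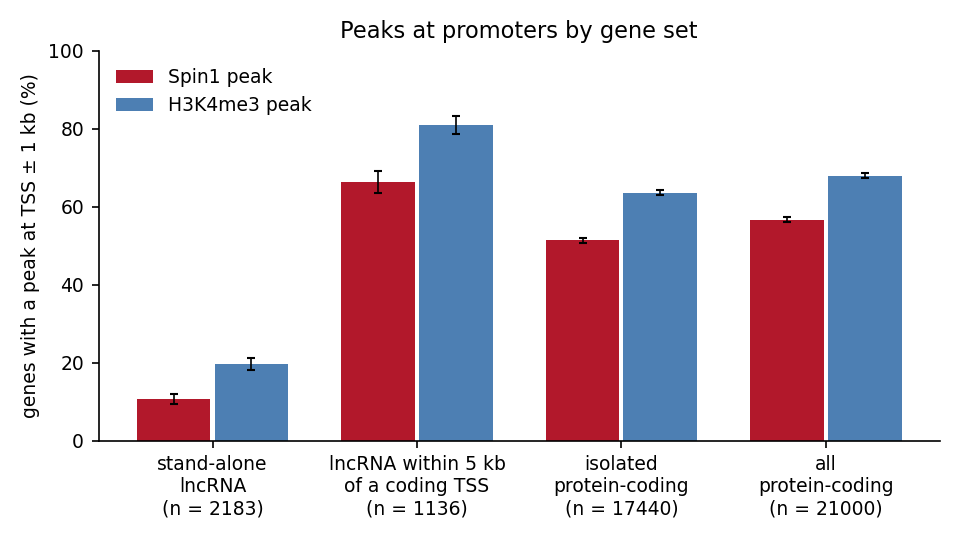
Share of genes with a Spin1 or H3K4me3 peak at TSS ± 1 kb, in percent, for 4 gene sets of the curated RefSeq annotation. Bars are shares and error bars 95% Wilson intervals, and the stand-alone lncRNA genes stand lowest for both peaks, at 10.7% and 19.6%.

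The distance of 5 kb that defines the set did not coincide with a step in occupancy. Over all curated lncRNA TSSs, the Spin1 share was 76.0% within 1 kb of a protein-coding TSS, 51.3% at 1 to 2 kb and 18.0% at 2 to 3 kb. It was 28.9% (11 of 38 TSSs) at 4 to 5 kb, just outside the set, and 23.3% (11.8 to 40.9%) at 5 to 6 kb, just inside it. The TSSs nearest to the limit were those of B830017H08Rik at 4984 bp, which had both peaks, and B230311B06Rik at 5012 bp, which had neither. Inside the set the shares went down further with distance. Spin1 was present at 20.6% (15.3 to 27.0%) of TSSs at 5 to 10 kb, 13.6% at 10 to 50 kb, 9.03% at 50 to 200 kb and 3.79% (2.31 to 6.15%) beyond 200 kb. H3K4me3 went the same way, from 33.3% at 5 to 10 kb to 17.3% at 50 to 200 kb and 8.08% beyond, and so did the median CpG ratio, from 0.273 to 0.193, whose part in the trend was not tested.

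Among the 15 TSSs beyond 200 kb with Spin1 were those of several known genes. Dnm3os, the host of miR-199a and miR-214 in mesenchyme, had a Spin1 peak of 5114 bp at the ceiling score of 3100, 235252 bp from the nearest protein-coding TSS. Mir99ahg had a score of 2415, and Firre, an X-linked RNA that organises nuclear contacts, had 495.2. Mir100hg, which carries let-7a-2, miR-100 and miR-125b, had Spin1 at 2 of its 3 stand-alone TSSs, with scores of 1127 and 3100, and H3K4me3 without Spin1 (score 1032) at the third. Gm6634 lay 799678 bp from the nearest protein-coding TSS with a Spin1 score of 3091.

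Where Spin1 occurred, it mostly lay inside an H3K4me3 peak. Of the 233 genes with Spin1, 97.4% (94.5 to 98.8%) had H3K4me3, against 99.9% of protein-coding genes with Spin1. Of 219 distinct pairs of peaks, the Spin1 peak lay wholly within the H3K4me3 peak in 181, or 82.6% (77.1 to 87.1%), against 92.0% (91.5 to 92.5%) at protein-coding promoters. It was the wider of the pair in 12, or 5.48% (3.16 to 9.33%), against 0.989% (0.821 to 1.19%), and did not touch the H3K4me3 peak in 5, against 6 of 11127 protein-coding pairs. The median ratio of Spin1 to H3K4me3 width was 0.628, and 0.645 at protein-coding promoters.

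In the other direction the sets differed. Spin1 was present at 53.0% (48.3 to 57.7%) of the stand-alone lncRNA genes with H3K4me3, against 83.3% (82.7 to 83.9%) of the protein-coding ones. The H3K4me3 peaks themselves were unlike. Those at stand-alone lncRNA promoters had a median score of 2636 and a median width of 1820 bp, and 47.2% were at 3100 or above, while the medians at protein-coding promoters were 3100 and 3247 bp, with 89.7% at 3100 or above. Among the lncRNA genes, H3K4me3 peaks with Spin1 had a median score of 3100 and a width of 2683 bp, and those without Spin1 a score of 351 and a width of 1161 bp. The comparison was therefore repeated within classes of H3K4me3 score and width.

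Within the classes of H3K4me3 score from 200 to 3100, Spin1 was more frequent at lncRNA than at protein-coding promoters. For scores under 200 the intervals overlapped. There Spin1 was present at 9.41% (4.85 to 17.5%) of lncRNA genes and 3.22% (1.76 to 5.82%) of protein-coding genes. The shares were 24.7% (16.6 to 35.1%) against 6.24% (4.48 to 8.63%) for scores from 200 to 1000, and 24 of 60 (28.6 to 52.6%) against 17.6% (14.9 to 20.8%) for scores from 1000 to 3100. In both of these classes the intervals did not overlap, with the lncRNA genes higher. At 3100 or above the order turned, with 86.6% (81.3 to 90.6%) against 91.7% (91.2 to 92.1%). By width, the lncRNA genes were higher under 1 kb, with 10.2% (5.47 to 18.3%) against 2.67% (1.45 to 4.84%). At 1 to 2 kb the intervals overlapped. The lncRNA genes were lower at 2 to 4 kb, with 84.6% (77.4 to 89.8%) against 90.9% (90.3 to 91.6%). So they were at 4 kb or more, with 93.4% (84.3 to 97.4%) against 98.1% (97.7 to 98.5%). Protein-coding genes weighted to the score classes of the lncRNA genes would have had Spin1 at 47.6%. Weighted to their width classes they would have had it at 53.2%, next to the 53.0% measured for the lncRNA genes. Both weighted shares average over classes that differ in opposite directions.

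**Figure D2:**
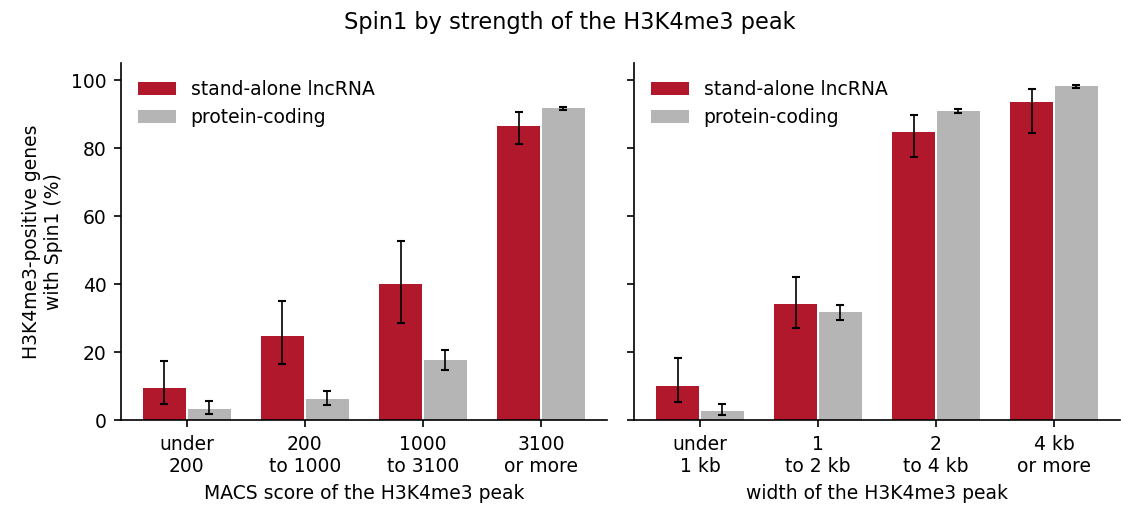
Share of H3K4me3-positive genes that also have Spin1, in percent, by the MACS score (left) and the width (right) of the H3K4me3 peak. Bars are shares with 95% Wilson intervals, red for stand-alone lncRNA and grey for protein-coding genes. From 200 to 3100 in score the red bars are higher. At widths of 2 kb or more the red bars are lower, and at 4 kb or more both sets are above 90%.

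Spin1 peaks at stand-alone lncRNA promoters were weaker, narrower and less well centered than at protein-coding promoters. Their median score was 749 (quartiles 228 and 3100), against 2992, and 50 of the 233 (21.5%) scored under 200, against 5.15%. The median width was 1600 bp, against 2293 bp, with a range from 519 to 9054 bp. The TSS lay inside the Spin1 peak in 181 genes (77.7%), against 95.2%. The peak center was downstream of the TSS in 71.7%, with a median of 272 bp, against 80.2% and 318 bp. Genes with Spin1 at 3100 or above numbered 62 (26.6%), against 48.9% of protein-coding genes with Spin1, and scores at this ceiling have no reliable order. Written scores went beyond 3100 at Gm10433 (3233), Gm38882 (3205) and Gm2885 (3110), which all had H3K4me3 at 3100.

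Promoters with H3K4me3 were richer in CpG, by the median, than those without it. The ratio of observed to expected CpG in TSS ± 1 kb had a median of 0.498 at TSSs with both peaks, 0.325 with H3K4me3 only, 0.186 with Spin1 only and 0.207 with neither. Stand-alone lncRNA promoters are CpG-poor as a set, since 38.5% had a ratio below 0.2 and 3.70% a ratio of 0.6 and above, against 20.1% and 35.4% of protein-coding promoters. Spin1 was present at 1.81% (1.12 to 2.92%) of the lncRNA TSSs below 0.2, at 6.29% from 0.2 to 0.4, at 46.5% (39.7 to 53.4%) from 0.4 to 0.6 and at 80.0% (70.3 to 87.1%) from 0.6 upward. H3K4me3 was present at 3.84%, 18.0%, 70.5% and 95.3% in the same classes.

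Within a CpG class the lncRNA promoters were still below isolated protein-coding promoters. For Spin1 the isolated protein-coding TSSs had 2.87% below 0.2, 20.2% from 0.2 to 0.4, 70.7% from 0.4 to 0.6 and 91.0% from 0.6 upward, and the intervals overlapped in the lowest class alone. Weighted to the CpG classes of the lncRNA TSSs, isolated protein-coding TSSs would have had Spin1 at 20.5% and H3K4me3 at 34.3%, where the lncRNA TSSs had 10.8% and 20.0%. Unweighted, the isolated protein-coding TSSs had 50.2% and 63.6%, so the shares differed less with the weighting and still differed.

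**Figure D3:**
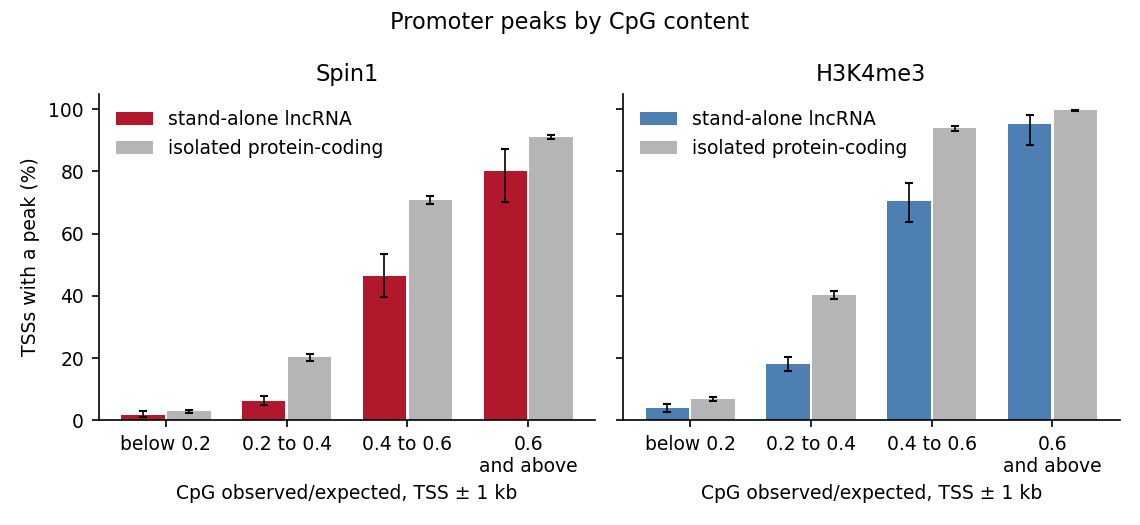
Share of TSSs with a Spin1 (left) or H3K4me3 (right) peak, in percent, by the ratio of observed to expected CpG in TSS ± 1 kb. Coloured bars are stand-alone lncRNA and grey bars isolated protein-coding TSSs, with 95% Wilson intervals; Spin1 climbs from 1.81% to 80.0% of the lncRNA TSSs and stays under the grey bars.

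Exceptions to this relation occurred at both ends of the CpG range, and those named here were chosen after their values were seen. Below a CpG ratio of 0.2, 16 of 885 TSSs had Spin1, with a median score of 244.6. Lincmd1 (ratio 0.162), 0610043K17Rik (0.193) and AI450353 (0.105), host of Snord7, had Spin1 at 3100, and Gm6634 (0.168) at 3091. The Lincmd1 peak was 5604 bp wide and started just upstream of the TSS, with its center 2731 bp downstream. The peaks of 0610043K17Rik and Gm6634 had their centers 2471 and 1600 bp downstream. That of AI450353 ended upstream of the TSS, with its center more than 1 kb away. All these centers lay outside TSS ± 1 kb, where the CpG ratio was read, and CpG under the peaks was not measured. At the CpG-rich end, 17 of the 85 TSSs with a ratio of 0.6 and above had no Spin1, and 13 of these 17 had H3K4me3. These included Tunar, Mir124a-1hg, Mir9-3hg and Mirc35hg, of neural and sensory cells, and D130079A08Rik and Gm16551, which lie next to the neural or hepatic factors Pou4f1 and Onecut1. The rest of the 13 were 1700001L05Rik, 1700086L19Rik, 2900060B14Rik, 5730488B01Rik, 9530059O14Rik, Gm13205 and Gm26520. Sox1ot, which starts 9748 bp from the TSS of Sox1, had both peaks at a ratio of 0.819, and no order by tissue was tested. The other 4 of the 17, with neither peak, were Xist, Gm26788, Gm36809 and Gm42064.

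Other sequence features were compared in the same way. Median GC content was 50.4% at TSSs with both peaks and 45.2% at those with neither, and the share of repeat-masked bases was 14.4% and 19.5%. A TSS base within a masked repeat went with less Spin1 (5.65%, 3.69 to 8.56%) than one outside (11.7%, 10.4 to 13.2%). The core CAGCTG stood in the 300-base promoters of 15.4% of TSSs with both peaks, 24.8% with H3K4me3 only and 18.9% with neither, and the core CACCTG, read on both strands, in 16.6%, 17.4% and 22.1%. The letters TATAAA, 15 to 40 bases before the start on the gene's strand, were found at 14 TSSs with both peaks (5.81%), 1 with H3K4me3 only (0.459%) and 34 with neither (1.85%), against 2.13% of all stand-alone lncRNA TSSs. At protein-coding TSSs the order was different, with 0.945% for both peaks and 5.44% for neither. The 14 TSSs belonged to 12 genes, among them Neat1, Meg3 and the snoRNA hosts Snhg5, Snhg7 and Snhg8.

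The structure and surroundings of the gene went with occupancy as well. Spin1 was present at 36.4% (25.8 to 48.4%) of the 66 TSSs of unspliced transcripts, 12.4% with 2 exons and 9.56% with 3 or more. The median CpG ratio was 0.312 for unspliced transcripts and 0.223 with 3 or more exons. At ratios from 0.4 to 0.6 the shares for 1, 2 and 3 or more exons were 53.8%, 42.4% and 46.8%. From 0.6 upward they were 85.7%, 15 of 20 TSSs and 80.4%, with overlapping intervals in both classes. From 0.2 to 0.4 they were 4 of 19 TSSs (8.51 to 43.3%), 7.28% and 5.75% (4.41 to 7.47%). Here the intervals for 1 exon and for 3 or more did not overlap. Below 0.2 the shares were 1 of 20 TSSs, 1.77% and 1.73%, with overlapping intervals. Transcripts of 2 kb or longer had 14.5% and those under 1 kb 7.95%. Intergenic TSSs had 12.1% (10.7 to 13.6%), and those inside a protein-coding gene on the opposite strand 5.12% (3.30 to 7.86%). Where the nearest protein-coding gene had Spin1 at its own promoter, the lncRNA TSS had it in 12.0% (10.5 to 13.8%), against 8.43% (6.65 to 10.6%) where it had not. By distance, the intervals were apart at 10 to 50 kb, with 93 of 548 TSSs (14.1 to 20.3%) against 7.99% (5.47 to 11.5%). At 5 to 10 kb the shares were 26.0% (18.4 to 35.4%) and 13.0% (7.21 to 22.3%), at 50 to 200 kb 8.98% and 9.58%, and beyond 200 kb 3.03% and 4.27%, with overlapping intervals in each. Within CpG classes the intervals overlapped too, with 6.78% against 5.75% from 0.2 to 0.4, 47.4% against 44.4% from 0.4 to 0.6, and 84.7% against 65.2% from 0.6 upward. On chromosome X, 15.2% (8.91 to 24.7%) of TSSs had Spin1, an interval that includes the 10.7% of the autosomes.

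Hosts of small RNAs had occupied promoters more often than the other genes. By position, 30 genes carry an annotated small nucleolar RNA (snoRNA) on their strand, and 20 of them had Spin1, or 66.7% (48.8 to 80.8%). Of 43 genes that carry a microRNA, 21 had Spin1, or 48.8% (34.6 to 63.2%). Gm32817 and Gm53058, both with Spin1, carry the same microRNAs and were counted separately. Genes with no such RNA had Spin1 in 193 of 2111 (9.14%, 7.99 to 10.4%). The median CpG ratio was 0.514 for snoRNA hosts, 0.349 for microRNA hosts and 0.225 for the rest, and its part in these shares was not tested.

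The genes with Snhg symbols, named as snoRNA hosts, were described as a list of their own. It includes Snhg20, in which the annotation places a microRNA and no snoRNA. Of the 12 genes, 11 had Spin1 and H3K4me3 both at 3100, with Spin1 peaks from 2409 bp at Snhg20 to 4807 bp at Snhg4. They were Snhg3, Snhg4, Snhg5, Snhg6, Snhg7, Snhg8, Snhg12, Snhg15, Snhg16, Snhg17 and Snhg20. Both peaks, at any score, were present at 10.4% of all stand-alone lncRNA genes. The list was gathered with earlier results on these data known, so its count is no independent evidence. Its median CpG ratio was 0.573, whose part in the count was not tested. Snhg11, a neuronal member of the group, had a H3K4me3 peak of score 243.1 and no Spin1. Most snoRNA hosts carry guides for the chemical modification of ribosomal RNA in their introns, and many are made in growing cells.

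The microRNA hosts are given by the tissue in which their microRNA is known, and those without a name of the form Mir...hg were chosen after their values were seen. Spin1 was present at the hosts of the muscle microRNAs miR-206 and miR-133b (Lincmd1, 3100) and miR-1a and miR-133a (Mir1a-1hg, 359.6), of miR-143 and miR-145a of smooth muscle (Carmn, 3100) and of the mesenchymal pair miR-199a and miR-214 (Dnm3os, 3100). It was also present at Mir22hg with 7237 bp, Dleu2 with 5001 bp, H19, which carries miR-675, and C430049B03Rik, which carries miR-322 and miR-503. Spin1 at Mir17hg ended upstream of the annotated TSS, with its center at -2439 bp and a width of 4353 bp. Hosts with H3K4me3 alone were Mir124a-1hg, Mir124-2hg and Mir9-3hg, of neuronal microRNAs, and Mirc35hg of the sensory cluster miR-96, miR-182 and miR-183. Where 80.1% of all stand-alone lncRNA genes had neither peak, this was so for 18 of the 43 hosts. These included Mir155hg and F630028O10Rik, which carries miR-223, of leukocytes, Mir205hg and Gm13648, which carries miR-200a and miR-200b, of epithelium, and D7Ertd143e and Gm51018, which carry the miR-290 and miR-302 clusters of embryonic stem cells. Others of the 18 carry microRNAs that are not tied to such a tissue, among them A330023F24Rik with miR-29b-2 and miR-29c, Lncppara with let-7b and let-7c-2, Gm49890 with miR-31, 6430411K18Rik with miR-433 and the imprinted Mirg. Hosts of the neural microRNA miR-9 were of both kinds, since C130071C03Rik and Gm3764 had both peaks. No test of an order by tissue was made.

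**Figure D4:**
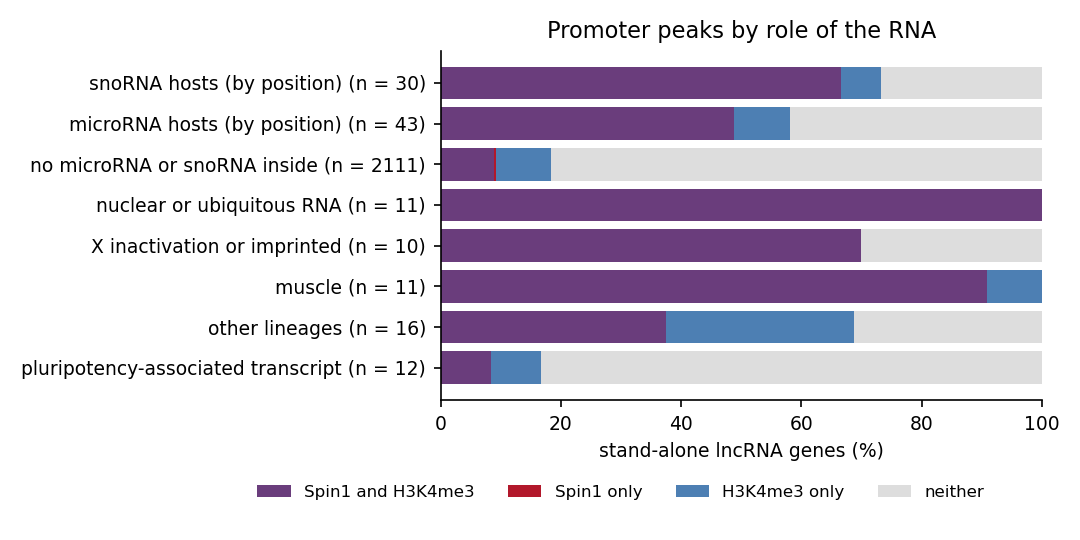
Classes of promoter peaks, in percent of stand-alone lncRNA genes, for small RNA hosts found by position and for lists of known lncRNAs, with the number of genes beside each name. Colours give the share with both peaks, Spin1 only, H3K4me3 only or neither. Both peaks reach 66.7% of snoRNA hosts and 1 of 12 pluripotency-associated transcripts, beside 10.4% of all stand-alone lncRNA genes. A gene may stand in more than 1 list.

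All 11 stand-alone genes in the list of nuclear or ubiquitous RNAs had both peaks, against 10.4% of all stand-alone lncRNA genes. This list and those that follow were gathered with earlier results on these data known, so their counts are no independent evidence. Malat1, which localises to nuclear speckles, had the widest Spin1 peak of all members, 9054 bp, with a H3K4me3 peak of 12195 bp. Neat1, the scaffold of paraspeckles, had 6380 bp of Spin1 in 18965 bp of H3K4me3. Norad had 2386 bp and Oip5os1, also called Cyrano, 2863 bp, both at 3100. Pvt1, next to Myc, and Lncpint also reached 3100, while Trp53cor1, a p53 target next to Cdkn1a, had a score of 771.0.

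Of 10 imprinted or X-inactivation genes, 7 had both peaks and 3 had neither, against 10.4% and 80.1% of all stand-alone lncRNA genes. Kcnq1ot1, which silences its imprinted neighbours, had Spin1 at 3100, H19 at 2010, Airn at 1669, Meg3 at 493.1 and Peg13 at 149.8. The X-linked genes Jpx and Ftx, regulators of Xist, scored 1174 and 740.6. All 7 had H3K4me3 at the ceiling of 3100, where scores have no order, and their H3K4me3 peaks were from 3173 bp wide at Meg3 to 5516 bp at Kcnq1ot1. Xist, Mirg and Ipw had neither peak. Peaks at imprinted promoters may come from 1 allele, and the lists do not separate alleles.

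Genes with known roles in muscle had both peaks in 10 of 11 cases, against 10.4% of all stand-alone lncRNA genes. They overlap the lists above and were gathered with earlier results on these data known, so the count is no independent evidence. Lincmd1, Dnm3os, Mir22hg, Carmn, Malat1, Neat1 and Lncpint had Spin1 at 3100. Bvht, a cardiac lncRNA, had Spin1 at 728.9 with a H3K4me3 peak of score 873.8. The exception was Gm45923, also called Munc, which starts 5071 bp from the TSS of Myod1. It had a H3K4me3 peak of 93.7 with its center 1260 bp downstream and no Spin1 within its window.

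Transcripts of other lineages were mixed. Both peaks were found at 6 of 16, H3K4me3 only at 5 and neither at 5. Over all stand-alone lncRNA genes the shares were 10.4%, 9.21% and 80.1%. The list is not separate from the others. Bvht and Carmn, with both peaks, are also in the muscle list, and Platr22, Platr4 and Platr10 are also among the Platr genes. Spin1 was present at Hotair in the HoxC cluster (1736), at Morrbid of myeloid cells (3100) and, at low score, at Sox1ot (103.9). Tunar, Pantr2, Miat, Lncenc1 and Cdr1os, of neural or stem cells, had H3K4me3 without Spin1, with H3K4me3 scores from 425.3 at Cdr1os to 3100 at Tunar and Pantr2. Sox2ot, Rmst and Dlx6os1, also neural, had neither. Of the 12 pluripotency-associated (Platr) genes, 10 had neither and Platr30 had H3K4me3 only. Platr22 had both at low score, 230.8 for Spin1 and 61.1 for H3K4me3. These counts lie near the shares of all stand-alone lncRNA genes, 80.1% with neither peak and 10.4% with both.

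**Figure D5:**
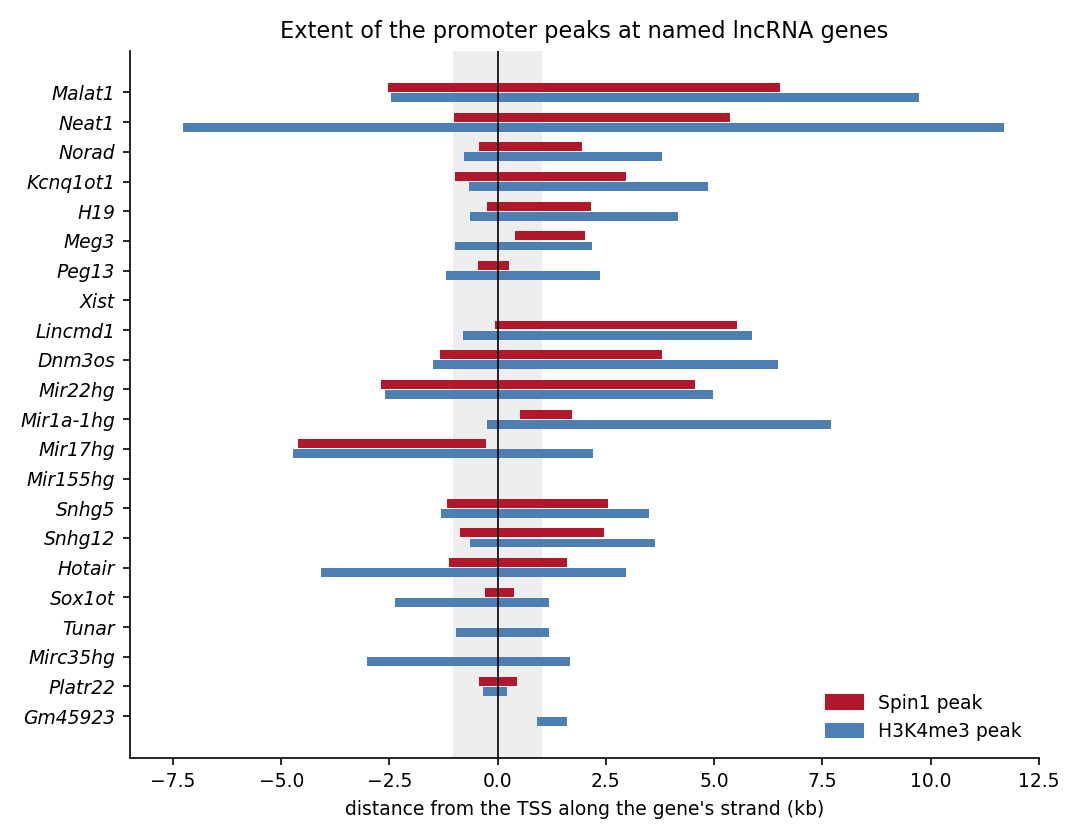
Extent of the Spin1 (red) and H3K4me3 (blue) peaks around the TSS of 22 lncRNA genes, in kb along the gene's strand, with TSS ± 1 kb shaded. For genes with several TSSs the one with the highest scores is drawn, and Malat1 and Lincmd1 show Spin1 reaching several kb downstream while Xist and Mir155hg have no bar.

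Of the 202 genes with H3K4me3 at 3100 or above, 175 had Spin1 and the rest had not. BB283400 and Mirc35hg, which start from the same H3K4me3 peak of 4672 bp, had the widest H3K4me3 peak among those without Spin1 at this score. They were followed by 6330415G19Rik with 4025 bp, 5730488B01Rik, next to the B-cell factor Pax5, with 3098 bp, and Mir124a-1hg with 2939 bp. In the opposite case, Spin1 without H3K4me3 was found at 6 genes with scores from 119.1 to 373.6. These were 1700054A03Rik, 4930447K03Rik, 4930555A03Rik, E330032C10Rik, Gm11342 and Gm15551. Their Spin1 peaks lay from 3453 bp at Gm15551 to 93775 bp at Gm11342 from the nearest H3K4me3 peak, so none touched one. The share of 0.275% (0.126 to 0.598%) compares with 0.0381% (0.0193 to 0.0752%) of protein-coding genes, and 4 of the 6 Spin1 peaks scored under 200.

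Distances to the nearest peak were measured for all 2183 genes. The nearest Spin1 peak lay 1 to 5 kb from the TSS for 53 genes and more than 50 kb away for 1175 (53.8%), with a median of 58740 bp over all members. The nearest H3K4me3 peak was 1 to 5 kb away for 133 genes, 5 to 50 kb away for 854 (39.1%) and more than 50 kb away for 768 (35.2%), with a median of 25600 bp.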

How the data were processed

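Peak lists of Spin1 and H3K4me3 ChIP-seq in primary myoblasts were used, 2 of 25 samples. The input and the RNA-seq libraries were not used here. Alignment by the authors used bowtie 2 and the mm10 assembly, and MACS 1.4.2 was run against the input at a false discovery rate of 1%. They deposited the start, the end and the score of each peak, the negative log10 p-value multiplied by 10. This score grows with depth and width and was ranked within 1 list only. The lists hold no read counts, so weak peaks that a shallow library would miss leave no trace. The study's methods give default bowtie 2 parameters and uniquely mapped reads for the intensity profiles. Whether peak calling used the same reads, and how duplicates were treated, is not given in the sources used here.

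TSSs came from the curated transcripts of RefSeq annotation release 108.20200622 (GRCm38.p6). Distances were measured to every annotated protein-coding TSS, and peaks were compared with TSS ± 1 kb. For a gene with several stand-alone TSSs, summaries use the highest-scoring peak. CpG ratios were read from TSS ± 1 kb of the soft-masked genome and motifs from 250 bases before to 50 after the TSS. Of the 2183 genes, 1777 have an entry in the RefSeq promoter table. Small RNA hosts were found by position on the gene's strand. This search and the weighting by CpG and H3K4me3 classes were decided after the peaks had been examined.

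Named genes were members of lists of known lncRNAs, the 5 genes with the highest Spin1 score (ties by width), the 5 with the widest Spin1 peak, the 5 with the highest H3K4me3 score and no Spin1, and all genes with Spin1 only. Members and lists were chosen with earlier results of these data known. Alternatives were other windows, distances, annotations, score thresholds and overlap rules, of which the 2 with GENCODE M21 were added after seeing the data. The overlap code was tested on simulated data. The software was Python 3.11.15 with pandas 2.3.3, NumPy 2.4.6, SciPy 1.17.1, matplotlib 3.10.9 and pysam 0.24.0.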

Additional observations from a re-analysis of the deposited data

How the results depend on the processing

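Of 92 values recomputed under alternatives for 14 results, 72 stayed within the 95% interval or within 1.5 times the count, and 20 moved. With the 50% of peaks with the highest score, 96 genes (4.40%) had Spin1 and 239 (10.9%) H3K4me3, Spin1 was present at 40.2% of genes with H3K4me3, and H3K4me3 at 100% of genes with Spin1. At more than 50 kb from a protein-coding TSS, 86 genes (7.33%) had Spin1 and 164 (14.0%) H3K4me3. With the peak center inside the window, the shares were 9.02% for Spin1 and 15.9% for H3K4me3, with Spin1 at 46.7% of genes with H3K4me3 and H3K4me3 at 82.2% of genes with Spin1. A score of at least 100 gave H3K4me3 at 17.1% and Spin1 at 59.4% of these genes, and a window that reached 0.1 kb downstream and 1 kb upstream gave H3K4me3 at 17.6%. With CpG measured in TSS ± 0.5 kb, Spin1 was present at 25.6% of TSSs with ratios from 0.4 to 0.6, and H3K4me3 at 45.5% of these and at 15.3% from 0.2 to 0.4. Leaving out the genes that GENCODE M21 calls protein-coding gave Spin1 at 10.5%, and asking for 5 kb from its protein-coding TSSs as well gave 10.0%, both chosen after seeing the data. No paired analysis was possible because each antibody gave 1 library, and replicates could not be left out for the same reason. The absence of a peak says only that none was called in these lists.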

Other observations

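Genes that RefSeq annotates as lncRNA from predicted transcripts alone belong in no comparison above. Of 7643 such genes more than 5 kb from a protein-coding TSS, 263 had Spin1, or 3.44% (3.06 to 3.87%), and 761 had H3K4me3, or 9.96% (9.31 to 10.6%). Spin1 without H3K4me3 was found at 40 of them (0.523%, 0.385 to 0.712%).

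By chromosome, the share of stand-alone lncRNA genes with Spin1 ran from 4.20% of 143 genes on chromosome 10 to 21 of 100 genes on chromosome 17, beside 0 of 7 on chromosome Y.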
